A study of Homo sapiens with 124 samples.

Results

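Chromosome 14 is an acrocentric human chromosome, with nearly all of its mapped sequence on the long arm. The contacts of this arm with the nuclear lamina were described here in single cells, over 880 usable bins of 100 kb (88 Mb) out of 26426 usable bins in the whole table. A bin was a member if it lay on chromosome 14 of the build hg19, held a number in every cell and was above 0 in at least 1 cell. Of the 1074 rows of the chromosome, 193 held no number, 190 of them before the first usable bin, and 1 bin, from 19500001 to 19600000, was at 0 in every cell. The members ran from 19000001 to 107300000. At the edge of the rule, 2 members were above 0 in a single cell, one of them the bin from 19200001 to 19300000.

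Each sample was 1 cell of KBM7, a leukaemia line whose cells carry nearly all chromosomes as a single copy. All of them are labelled as haploid cells of clone 14 carrying the bacterial methyltransferase Dam fused to LaminB1, so that 1 clone stands for the line. Before harvest Dam was induced for 15 h with 0.5 nM Shield1, a small molecule that stabilises suitably tagged proteins, and sorting kept the smallest 2% of the cells positive for both Fucci cell cycle markers. The table held 118 of the 124 samples, and the cells numbered 33, 34, 44, 86, 95 and 120 were not analysed here. The labels name no separate cultures, so the cells form a single group: the spread given below is that between cells, and no p-value was computed.

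The nuclear lamina is a protein meshwork under the inner nuclear membrane, and the stretches of chromatin that touch it are known as lamina-associated domains. These domains are known to be poor in genes and in transcription and to replicate late. In single-cell DamID the Dam fusion marks adenines of the motif GATC near the lamina, and the marked fragments are sequenced. Haploid cells hold a single copy of chromosome 14 before replication, and contacts of distant bins seen in such a cell then lie on the same DNA molecule. Whether every cell was sampled before replication was not tested here. Dam was induced for 15 h, so bins marked in a cell are not shown to have been in contact at the same moment. The short arms of acrocentric chromosomes are known to carry ribosomal RNA genes and to gather at nucleoli, and no bin there was usable.

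RefSeq lists 605 protein-coding genes on the chromosome, on the build GRCh38.p14. From the centromere outwards the order runs from olfactory receptor genes such as OR4K2 (gene 10 in that order) through RNASE2 and RNASE3, which encode ribonucleases of eosinophil granules (genes 43 and 42), and the heart myosin genes MYH6 and MYH7 (99 and 100) to CTSG and GZMB (145 and 147), which encode granule proteases. NOVA1, which encodes a neuronal RNA-binding protein (149), follows, then LRFN5 and MDGA2, which encode neuronal adhesion proteins (196 and 206). Farther out lie HIF1A, which encodes a factor of the oxygen response (297), NRXN3, a synaptic adhesion gene (441), FLRT2 (449), SERPINA1, which encodes alpha-1-antitrypsin (505), the imprinted gene DLK1 (545), HSP90AA1, a chaperone gene (551), and the kinase gene AKT1 (587). The positions of that build were not transferred to the bins of hg19, so the results below are given by position, without a contact value for any gene.

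A bin was counted as in contact in a cell if its ratio of observed to expected reads was at least 1. Recovered reads, the whole numbers of reads behind the ratios, numbered 499 to 15929 per cell on chromosome 14, with a median of 4067. A ratio of 1 in the median bin of the chromosome stood for 1.17 reads in the shallowest cell, 5.63 in the median cell and 15.9 in the deepest cell, and for fewer than 3 reads in 14 cells. No 2 cells held identical values. Cells numbered 96 to 124 (n = 28) had more signal in rarely contacted bins than cells numbered 1 to 94 (n = 90), a split seen in the data and not in the labels. Values of both sets are given beside the results, and the part of this difference in them was not tested.

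Chromosome 14 had 31.5% ± 10.4 of its usable bins in contact per cell (SD, n = 118), its contact share. The lowest cell had 6.25% (cell 105), the median cell 31.8% and the highest 56.7% (cell 97). The bins of all other chromosomes together had 33.0% ± 5.47, from 18.2 to 42.5%. Chromosome 14 was lower than the others in 57 cells and higher in 61, with a mean difference of -1.53 percentage points ± 8.97, which is small beside the spread between cells. By mean share it ranked 11 of the 22 sequences with usable bins. Its neighbours in that order differed from it by less than the spread: chromosome 2 was higher (chromosome 14 minus chromosome 2, -3.36 points ± 10.4) and chromosome 12 was lower (1.27 ± 10.5).

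The contact share of chromosome 14 varied more between cells than that of most chromosomes. Its SD of 10.4 points was exceeded only by the 11.9 points of chromosome 15, which had fewer usable bins. Chromosomes 18, 21, 20 and 13 came close, with SDs of 9.93, 9.93, 9.78 and 9.51 points. Chromosomes 12 and 10, which had similar mean shares over more bins, had SDs of 8.85 and 8.65 points. In each cell, the share of chromosome 14 and that of the other chromosomes come from the same library and depth. They followed each other in part, with r = 0.501 across the 118 cells. That correlation ranked 14 among the 22 sequences, with 0.776 on chromosome 11 at the top. Cells 1 to 94 alone gave r = 0.534 and cells 96 to 124 gave 0.203. Reads per cell had r = 0.463 with the share of chromosome 14 and 0.820 with that of the other chromosomes. Cells 1 to 94 had a mean share of 30.1% ± 9.58 and cells 96 to 124 had 36.0% ± 11.6, and the other chromosomes had 31.9% ± 5.54 and 36.5% ± 3.46.

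**Figure D1:**
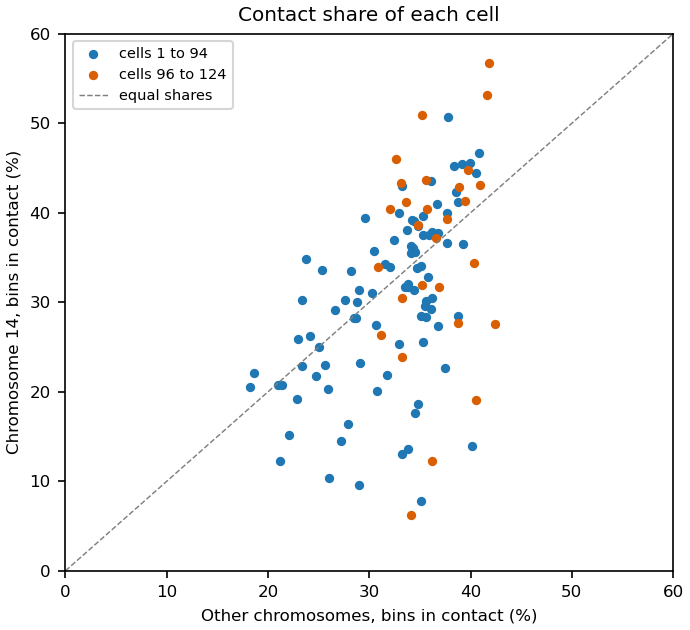
Contact share of chromosome 14 (vertical axis, % of 880 bins) against that of all other chromosomes (horizontal axis, % of bins), with 1 point per cell and a dashed line of equal shares. Points lie on both sides of the line, 57 below and 61 above, and the vertical spread (6.25 to 56.7%) is wider than the horizontal one (18.2 to 42.5%).

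A few cells had little lamina contact on chromosome 14 while the rest of their genome was near or above the average. Cell 105 had 6.25% of the chromosome in contact against 34.1% elsewhere, cell 91 had 7.84 against 35.1%, and cell 48 had 14.0 against 40.1%. Reads moved with these shares. Chromosome 14 took 0.790% of the reads of cell 105, 0.809% in cell 91 and 1.23% in cell 48, against a mean of 3.11% ± 0.932 over all cells, and the percentage of reads correlated with the contact share with r = 0.809. At the other end, cell 113 had 50.9% of the chromosome in contact against 35.2% elsewhere, with 5.14% of its reads on chromosome 14, and cell 97 had 56.7 against 41.8%. The table does not tell less contact from fewer recovered fragments in such a cell, and their parts were not tested.

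Compared with the long arms of the acrocentric chromosomes 13, 15 and 21, chromosome 14 lay between chromosome 13 and chromosomes 15 and 21. Chromosome 13 had 38.9% ± 9.51 over 960 bins and was higher in 92 of 118 cells (chromosome 14 minus chromosome 13, -7.36 points ± 12.8). Chromosome 15 had 26.0% ± 11.9 over its 512 usable bins and was lower than chromosome 14 in 78 cells (5.46 points ± 13.8), and chromosome 21 had 25.8% ± 9.93 over 355 bins (5.74 points ± 11.9). All 3 mean differences were smaller than their SD between cells. After the share of the remaining chromosomes was removed by regression, the share of chromosome 14 had r = 0.206 with chromosome 21, 0.0516 with chromosome 15 and -0.0241 with chromosome 13 over 118 cells. Over all 21 other sequences the median of this correlation was 0.0266, and the range was from -0.121 with chromosome 18 to 0.239 with chromosome 3.

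Few bins of chromosome 14 were in contact in nearly every cell. Contact frequency here means how many of the 118 cells, in percent, had a bin in contact. A frequency of 80% or more was reached by 61 bins, or 6.93% of the chromosome, whereas 15.1% of all usable bins reached it. By this share chromosome 14 ranked 15 of the 22 sequences although it ranked 11 by mean contact, and chromosome 12, with a lower mean, had 13.4%. The acrocentric chromosomes 13, 15 and 21 had 17.1, 1.95 and 0.282%. On chromosome 14 the limit cuts through a dense part of the distribution, since 11 bins were at 80.5% and 8 bins at 79.7%. Intermediate frequencies of 20 to under 80% were held by 368 bins, 41.8% of the chromosome against 33.9% of all usable bins, and gave 76.0% of its contacts. Chromosomes 13, 15 and 21 had 41.7, 45.5 and 45.4% of their bins at these frequencies. A high intermediate share was thus not particular to chromosome 14. No contact was seen in 169 bins of chromosome 14, or 19.2%, against 22.3% of all usable bins. Frequencies above 0 and under 20% were held by 282 bins, 32.0% against 28.8%. With frequencies taken in cells 1 to 94 alone, 8.75% of the chromosome was at 80% or more, and in cells 96 to 124 alone 8.86%. The share of all usable bins in either set alone is not given here. Whether the difference from all usable bins holds in each set was therefore not tested. The frequencies of the 880 bins in both sets had r = 0.923. These shares depended on the contact value and on depth. At a contact value of 0.5, 22.8% of chromosome 14 and 26.8% of all usable bins were at 80% or more, and 2.73 and 4.95% were never in contact. At a contact value of 2, 0 and 0.0946% were at 80% or more, and 35.7 and 35.9% were never in contact. With each cell thinned to 50000 reads (109 cells), 3.52 and 9.52% were at 80% or more, and 12.2% of chromosome 14 was never in contact. At a contact value of 0.5 and after thinning, chromosome 14 was below all usable bins in both shares. At a contact value of 2 both shares were nearly equal, so no difference is read from that setting.

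The most frequently contacted bin spanned 85200001 to 85300000. It was in contact in 104 of 118 cells, or 88.1% (exact Clopper-Pearson 95% interval 80.9 to 93.4%, counting error of cells only). The interval does not allow for the choice of this bin as the highest of 880 in the same cells. Its ratio was 0 in the lowest cell, 2.48 in the median cell and 13.1 in the highest, with a median of 15 reads. It was in contact in 92.2% of cells 1 to 94 and in 75% of cells 96 to 124. For a bin with 0 of 118 cells in contact, the true frequency could be as high as 2.54% (3 counts of the total) or 3.08% (exact upper bound). In the bins never in contact, 85.1% of the values were without any read and the mean ratio was 0.0426, whereas in bins at 80% or more 5.28% of the values were without reads and the mean ratio was 2.39.

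**Figure D2:**
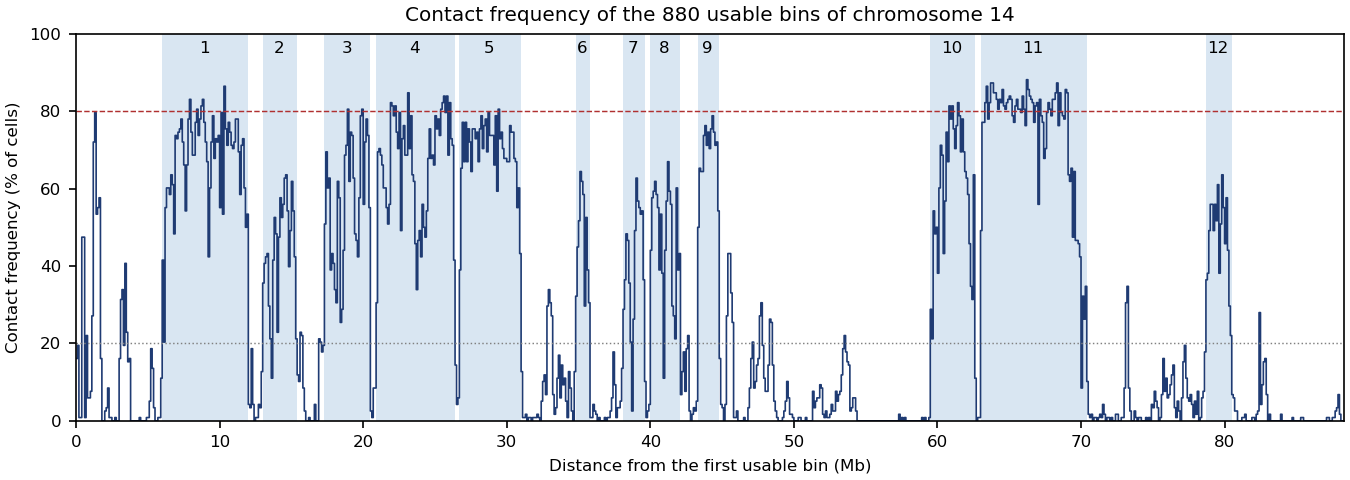
Contact frequency (vertical axis, % of 118 cells) of each usable bin along the long arm (horizontal axis, distance in Mb from the first usable bin at 19000001). Shaded spans numbered 1 to 12 are the contact domains described in the text, and the lines mark 80% and 20%. Domain 11 holds most of the bins above the 80% line, and a nearly empty stretch of 14.7 Mb lies between domains 9 and 10.

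Contacts along the arm were gathered in 12 domains. A contact domain was defined, after the map had been seen, as at least 1 Mb of consecutive usable bins at 20% or more, with single lower bins bridged. The 12 domains covered 39.8 Mb, or 45.2% of the chromosome, and held 90.0% of its contacts and all 61 bins at 80% or more. Bins at 20 to under 80% made up 41.8% of the chromosome against 33.9% of all usable bins. Those at 80% or more made up 6.93 against 15.1%. Domains of other chromosomes are not given here, so such gathering is not shown to be particular to chromosome 14. The mean frequency was 62.7% inside the domains and 5.73% outside, a contrast that the definition builds in. They are numbered here from the centromere.

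Domains 1 to 5 filled most of the arm from 25.0 to 50.0 Mb. Domain 1 spanned 25000001 to 31000000 (6 Mb), with a mean frequency of 68.0%. Per cell, 68.0% ± 25.6 of its bins were in contact (SD, n = 118), from 0 to 96.7% with a median of 76.7%. Domain 2, from 32000001 to 34400000, was contacted less, with 43.8% ± 32.5, and 17 cells had no contact there. Domain 3, from 36300001 to 39500000, had 57.2% ± 27.1. Domain 4, from 39900001 to 45400000 (5.5 Mb), had 66.4% ± 24.7, and domain 5, from 45700001 to 50000000 (4.3 Mb), had 70.0% ± 28.6. In domains 1, 4 and 5 the frequency stayed high along several Mb, and 95, 95 and 93 of 118 cells had over 50% of the bins in contact. Over all cells, only 5, 9 and 1 of their bins reached 80%.

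Domains 6 to 9 were short and lay between 53.8 and 63.8 Mb. Domain 6, from 53800001 to 54800000, had 46.5% ± 36.2 of its bins in contact per cell, and 28 cells had none. Domain 7, from 57100001 to 58600000, had 40.8% ± 32.6, the lowest mean of the 12, with no contact in 22 cells. Domain 8, from 59000001 to 61100000, had 46.7% ± 31.9. Domain 9, from 62300001 to 63800000, stood out among these 4 with 69.1% ± 33.9, and 34 cells had all of its 1.5 Mb in contact. Over all cells, none of the 4 held a bin at 80% or more, and the highest bin of domain 9 was at 78.8%. None held such a bin in cells 1 to 94 alone either. In cells 96 to 124 alone, domains 7, 8 and 9 held 1, 2 and 5 of them.

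Over all cells, domain 11 in the distal part of the arm held the most frequent contacts. The means of the distal domains 10 and 12 were below those of domains 1, 4, 5 and 9. Domain 10, from 78500001 to 81600000, had 60.8% ± 26.0, and domain 11, from 82000001 to 89400000, had 74.3% ± 22.8, the highest mean over all cells. In cells 96 to 124 alone, domain 11 had 70.9%, below domain 9 with 78.3% and domain 1 with 75.5%, so the rank of domain 11 rests on cells 1 to 94, where it had 75.3%. At 7.4 Mb domain 11 was also the longest. It held 41 of the 61 bins at 80% or more over all cells. It held 49 of 77 such bins in cells 1 to 94 but 12 of 78 in cells 96 to 124, where domain 1 held 24 and domain 4 held 14. Of the 118 cells, 99 had over 50% of domain 11 in contact. No cell lacked contact in domain 10 or 11, where the lowest cells had 3.23 and 2.70%, whereas each of the other 10 domains was without contact in at least 3 cells. Domain 12, from 97700001 to 99500000, was farther out and had 47.8% ± 38.0, with no contact in 23 cells and all bins in contact in 13.

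**Figure D3:**
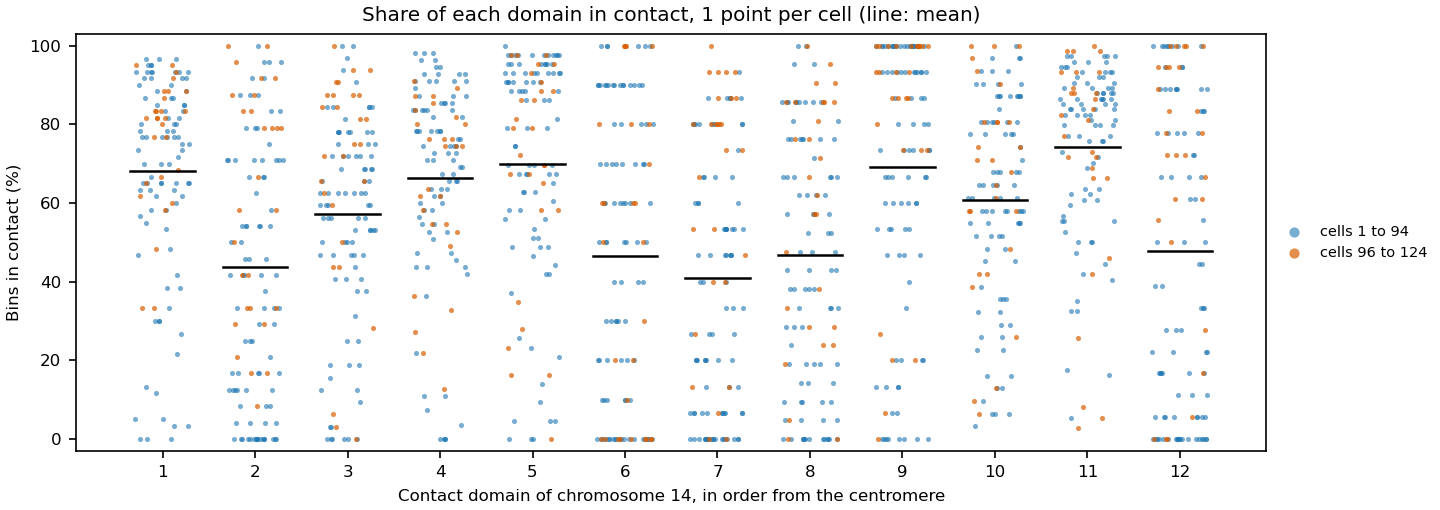
Percentage of the bins of each contact domain (horizontal axis, domains 1 to 12) that were in contact in each of the 118 cells (vertical axis), coloured by sample number, with a line at the mean over all cells. Points of domain 11 gather near the top around the mean of 74.3%, whereas those of domains 2, 6, 7, 8 and 12 spread over the whole range, with 15 to 28 cells at 0.

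Cells 96 to 124 differed most from cells 1 to 94 in 3 of the less frequent domains. Mean shares were 34.4% in cells 1 to 94 and 61.4% in cells 96 to 124 in domain 7, 42.1 and 66.1% in domain 12, and 38.8 and 59.8% in domain 2. In 8 of the 12 domains cells 96 to 124 had the higher mean. The other 4 were domains 4, 5, 6 and 11. In the longest stretch at 80% or more, which lies within domain 11, cells 1 to 94 had 86.8% and cells 96 to 124 had 72.5%.

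That stretch spanned 1.6 Mb, from 82600001 to 84200000. Its mean frequency was 83.4%, 103 of 118 cells had over 50% of it in contact and 55 cells had all of it, while 2 cells had none. It was the only one of 27 stretches at 80% or more that reached 1 Mb, and their median length was a single bin (0.1 Mb). The next 3 by length also lay in domain 11, from 85200001 to 85700000 (84.6% ± 27.1), from 84400001 to 84800000 (81.4% ± 30.5) and from 87000001 to 87400000 (84.5% ± 27.7). Domain 4 held the fifth, from 44400001 to 44700000 (82.2% ± 31.6), and domain 1 the first of the 0.2 Mb stretches, from 27700001 to 27900000 (82.2% ± 33.0). In each of these last 5 stretches the median cell had every bin in contact, and 4 to 12 cells had none.

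Stretches at 40 to under 60% were short, and none of the 59 on the chromosome reached 1 Mb. These frequencies were held by 108 bins, 12.3% of the chromosome against 8.81% of all usable bins. The longest lay in domain 4, from 42800001 to 43500000, with 49.4% ± 37.4 of its 0.7 Mb in contact per cell. It was free of contact in 24 cells, over 50% in contact in 56 cells and in contact to a lesser extent in 38. From 97900001 to 98500000, in domain 12, the share was 53.0% ± 41.2, with 31 cells at 0 and 37 with every bin in contact. The stretch from 58100001 to 58500000 in domain 7 had 54.9% ± 42.0, with 33 cells at 0 and 42 complete. The remaining 2 of the 5 longest, from 33100001 to 33500000 in domain 2 and from 38400001 to 38800000 in domain 3, had 53.4% ± 39.6 and 48.7% ± 37.7. Single cells were thus spread over the whole range in these stretches, and many were at 0 or 100%.

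Rare contact filled long stretches between and beyond the domains. Frequencies of 5% or less were held by 326 bins, or 37.0% of the chromosome, against 38.8% of all usable bins. The longest stretch at this level spanned 5.2 Mb from 73300001 to 78500000, just before domain 10, with a mean frequency of 0.163%, and it was free of contact in 110 of 118 cells. It contained 2.9 Mb, from 73400001 to 76300000, without a contact in any cell. The second, 4.9 Mb from 102000001 to 106900000 near the end of the chromosome, had 0.311%, with 11 cells in contact somewhere. Stretches from 89500001 to 92000000 (0.915%), 92400001 to 94100000 (0.997%), 99700001 to 101400000 (0.847%) and 68700001 to 70300000 (0.424%) followed. Cells 96 to 124 gave more of these contacts than cells 1 to 94, with means of 0.481 and 0.0641% in the longest stretch, 2.57 and 0.400% from 89500001 to 92000000, and 1.34 and 0.139% from 68700001 to 70300000.

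Outside the domains, contacts above 20% occurred in 16 short stretches. The highest lay near the centromere, from 20100001 to 20700000, with a mean of 57.5% ± 31.8 and a highest bin at 79.7%, and 70 of 118 cells had over 50% of it in contact. Nearby bins had few expected reads. In 9 bins of the chromosome, all within the first 2 Mb of usable sequence, a ratio of 1 stood for less than 1 read in the median cell, so that a single read made a contact. The bin from 20100001 to 20200000, which stood for 0.160 reads, was one of them, whereas the next one, at 72.0%, stood for 1.94 reads. Farther out, the stretch from 64300001 to 64800000 had 34.4% ± 37.6 and the one from 92100001 to 92300000 had 32.6% ± 40.5. A bin from 101400001 to 101500000 was at 28.0%, where cells 1 to 94 had 32.2% and cells 96 to 124 had 14.3%.

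The ends of the usable arm differed. The first 2 Mb from 19000001 had 28.3% ± 17.4 of 17 usable bins in contact per cell, and the last 2 Mb had 0.890% ± 2.74 of 20 bins, with a contact in 14 of 118 cells. In 9 of the 17 bins, and in none of the last 2 Mb, a ratio of 1 stood for less than 1 read in the median cell. The ends were thus not measured alike. The windows of 10 Mb with the highest mean frequencies were those from 40 to 50 Mb, at 66.6% ± 23.4, and from 80 to 90 Mb, at 65.7% ± 20.1. They differed in their frequent bins, with 10 of 100 bins at 80% or more in the former and 43 of 100 in the latter. The lowest were the windows from 70 to 80 Mb (10.6% ± 7.08) and from 100 Mb to the end (1.54% ± 2.59).

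Domain borders differed in how steep they were. Over the 24 borders, the frequency rose from the last bin outside to the first bin inside by 9.32 to 52.5 percentage points, with a median of 30.1. The rise was 40 points or more at 5 borders and under 20 points at 5. Across 39500001, the distal border of domain 3, the frequency went from 55.1 to 2.54% between adjacent bins. Contact on the proximal side alone was seen in 63 cells, on the distal side alone in 1 cell and on both sides in 2 cells. At 81600001, the end of domain 10, it went from 63.6 to 11.0%, with 62 cells in contact on the proximal side alone and none on the distal side alone. At 31000001, the end of domain 1, 53.4% dropped to 4.24% (58 cells against 0), and at 82000001, the start of domain 11, 0.847% rose to 49.2% (0 against 57). A ratio of 1 stood for 4.42 to 6.52 reads in the median cell in these 8 bins, so the depth was similar on both sides. Other borders were gradual. Domain 12 began with 17.8% outside and 36.4, 38.1, 49.2 and 55.9% in its first 4 bins, and ended with 57.6, 44.1, 29.7 and 22.0% before 6.78% outside. Domains 6 and 7 likewise began with 32.2, 44.9, 51.7 and 64.4% and with 28.8, 36.4, 48.3 and 46.6% in their first 4 bins.

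Narrow intervals with rare contact separated neighbouring domains. Only 0.4 Mb from 39500001 to 39900000 lay between domains 3 and 4, at 5.08% on average, and it was free of contact in 103 of 118 cells. Between domains 4 and 5, the 0.3 Mb from 45400001 to 45700000 had 8.19%, with no contact in 96 cells, and between domains 10 and 11 the 0.4 Mb from 81600001 to 82000000 had 3.18%, with none in 104 cells. The flanking domains were in contact over more than 50% of their bins in 73 cells for the pair of 3 and 4, in 83 cells for 4 and 5 and in 80 cells for 10 and 11. Single low bins also lay inside domains. In domain 7 the bin from 57700001 to 57800000 was at 2.54% between bins at 20.3 and 26.3%, and in domain 1 the bin from 28200001 to 28300000 was at 42.4% between 66.9 and 60.2%.

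Contacts in single cells formed long runs. Usable bins in contact that follow each other without a gap make up a run. Cells had 59.4 ± 16.2 runs on chromosome 14 (SD, n = 118), with a mean run of 0.480 Mb ± 0.155. The shortest mean run was 0.134 Mb in cell 105 and the longest 0.851 Mb in cell 81. On the other chromosomes the mean run was 0.507 Mb ± 0.102, and chromosome 14 was longer in 51 of 118 cells, with a mean difference of -0.0274 Mb ± 0.130. Runs of at least 1 Mb held 47.5% ± 18.2 of the contact bins of chromosome 14 per cell and 53.3% ± 10.5 elsewhere, and single-bin runs held 10.3% ± 7.45 and 7.98% ± 3.18. Runs averaged 0.495 Mb ± 0.153 in the cells numbered 1 to 94 and 0.433 Mb ± 0.156 in those numbered 96 to 124.

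The longest run of a cell lay most often in domain 11. That was so in 62 of 118 cells, followed by domain 5 with 19 cells, domain 1 with 15 and domain 4 with 10. The longest run had a median of 3.5 Mb and was at least 3 Mb in 73 cells. In cell 101 it spanned 7.5 Mb, from 82000001 to 89500000, which covers the whole of domain 11. In cell 105, by contrast, the longest run was 0.4 Mb.

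**Figure D4:**
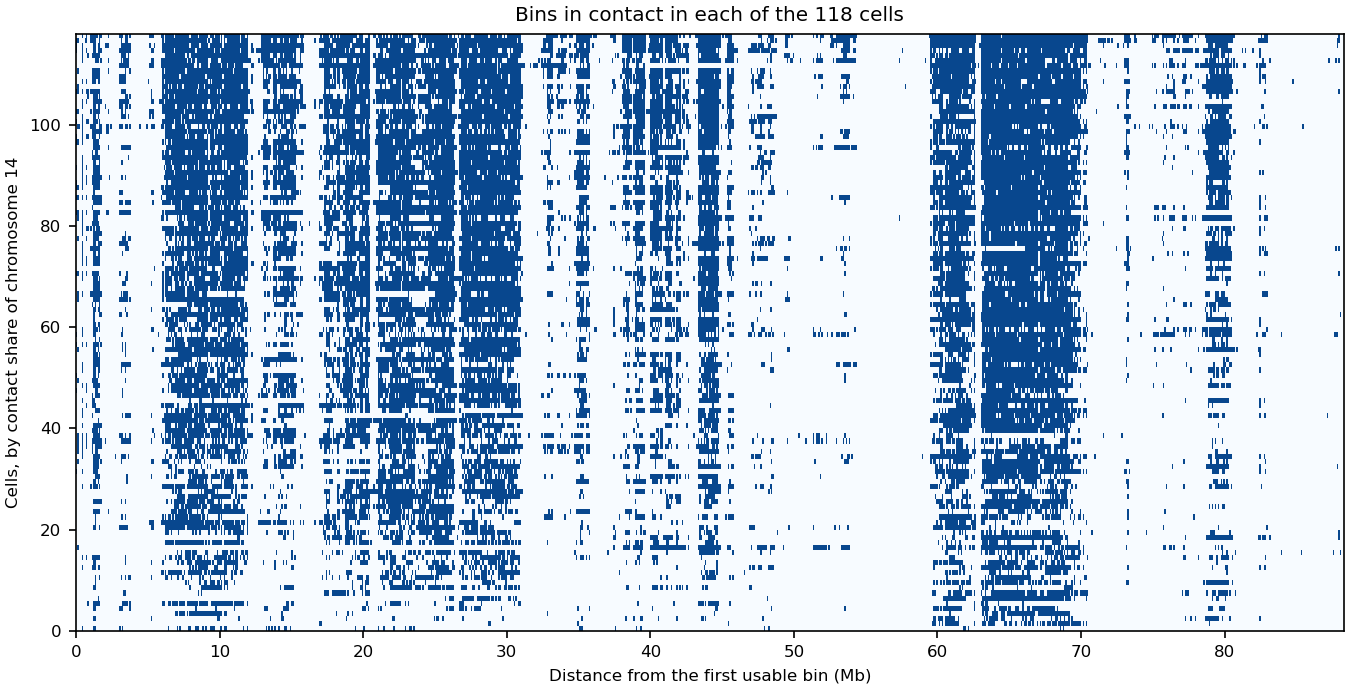
Bins in contact (dark) along the long arm (horizontal axis, distance in Mb from the first usable bin) in each of the 118 cells (rows, ordered by the contact share of chromosome 14 from 6.25% at the bottom to 56.7% at the top). Domains appear as dark vertical bands, whole domains are missing in single rows, and the 3 unusable bins within the arm are drawn as not in contact.

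Single cells used different combinations of domains. The number of the 12 domains with over 50% of their bins in contact had a median of 8, from 0 in 1 cell to 12 in 10 cells. In 41 cells it was 10 or more and in 15 cells 3 or fewer. At least some contact in every domain was seen in 58 cells. Cell 105 had no domain over 50%, and its highest shares were 33.3% in domains 1 and 2. Cell 91 had no contact in domains 1 to 4 and 7 to 9 but 51.6% of domain 10 and 62.2% of domain 11. In cell 48, domain 4 was at 67.3% and domain 11 at 16.2%. In cell 113 all 12 domains were over 50%, from 72.2% of domain 12 to 100% of domains 2, 9 and 10.

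Shares of domains tended to be high or low together in a cell, and over all cells the correlation was higher for domains that lay close to each other. Correlations were taken over the 118 cells, after the share of the other chromosomes was removed by regression. All values below are descriptions, and the domains of a cell share its library and depth. The mean correlation of the 66 pairs of domains was 0.345, and all 66 were above 0. It was 0.510 for the 11 pairs of neighbouring domains, 0.498 for 15 pairs under 10 Mb apart from centre to centre, 0.343 for 29 pairs at 10 to under 30 Mb and 0.242 for 22 pairs at 30 Mb or more. The sets of cells differed in this decline. In cells 1 to 94 the 3 distance classes had 0.506, 0.299 and 0.196, whereas cells 96 to 124 had 0.505, 0.522 and 0.396, with no decline between the first 2 classes and a lowest pair of -0.128, for domains 6 and 9. The highest value was 0.648, for domains 8 and 9, and domains 4 and 5 had 0.639. Domains 8 and 9 were both over 50% in 56 cells and both at 50% or less in 28 cells, with domain 8 alone over 50% in 1 cell and domain 9 alone in 33. The lowest value was 0.0575, for domains 4 and 12.

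Across the 14.7 Mb between domains 9 and 10 the mean correlation was 0.254, for pairs of domains 1 to 9 with domains 10 to 12, and single pairs reached 0.414, for domains 8 and 11. Pairs among domains 1 to 5 had a mean correlation of 0.506 and pairs among domains 10 to 12 of 0.447. Pairs of domains 1 to 5 with domains 7 to 9, on the same side of that stretch, had 0.314, with a lowest value of 0.192. Domains 1 and 11, 57.7 Mb apart, had 0.139, and 83 cells had both over 50%, 12 domain 1 alone, 16 domain 11 alone and 7 neither. Without the 2 cells of lowest share, cells 105 and 91, the mean over all pairs was 0.312, and 65 of 66 remained above 0. It was also 0.312 in cells 1 to 94 and 0.476 in cells 96 to 124, where 65 of 66 were above 0. The pairs of domains 1 to 9 with 10 to 12 had 0.437 in cells 96 to 124, against 0.196 in cells 1 to 94. Removing the number of reads as well gave a mean of 0.343 over all cells and pairs.

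Correlations between single bins were also lower at larger distances. For pairs among the 368 bins at 20 to under 80%, corrected for each cell's contact share, the mean correlation over cells was 0.486 for neighbouring bins. It was 0.205 at 2.1 to 5 Mb, 0.137 at over 10 to 20 Mb, 0.0937 at over 20 to 50 Mb and 0.0490 at over 50 Mb. Pooled over the other sequences the values were 0.472, 0.168, 0.0881, 0.0569 and 0.0196. Chromosome 14 was above the pooled value at each of the 8 distances and within the range of the other sequences at each. Of the single other sequences, 8 of 19 were higher for neighbouring bins, 10 of 20 at 0.2 to 1 Mb and 9 of 19 at 1.1 to 2 Mb. At over 10 to 20 Mb, 4 of 19 were higher, and at over 50 Mb 3 of 17. At over 20 to 50 Mb cells 1 to 94 gave 0.0781 and cells 96 to 124 gave 0.157.

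**Figure D5:**
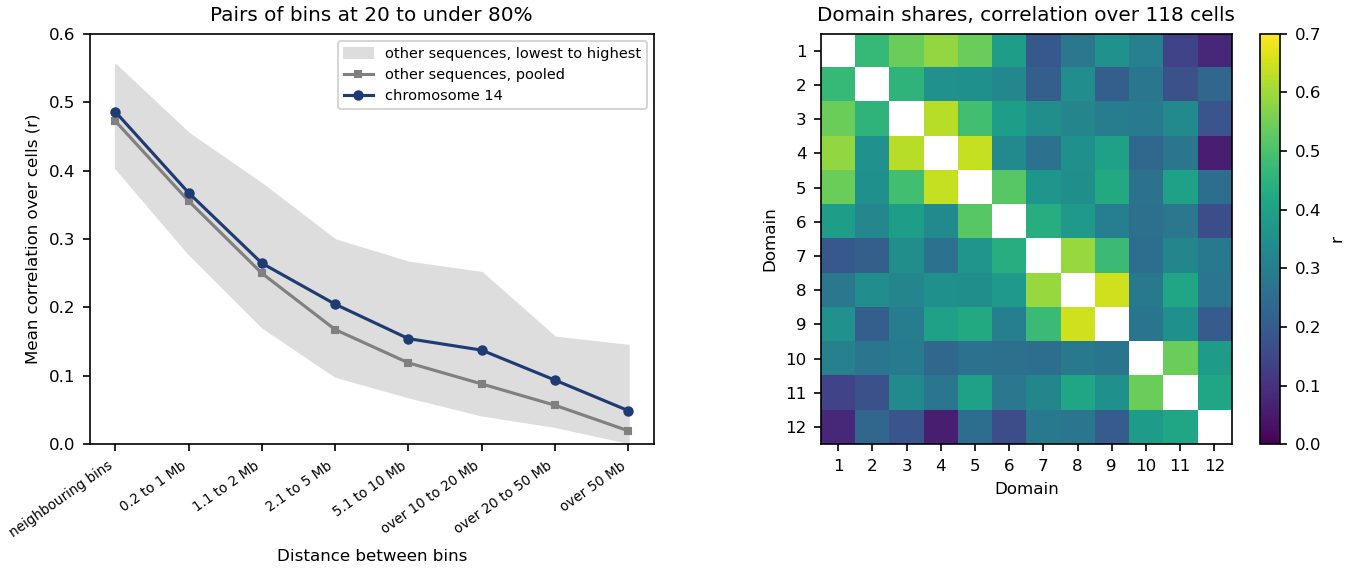
Left, mean correlation across the 118 cells for pairs of bins (vertical axis) by distance (horizontal axis), for chromosome 14 and for the other sequences pooled, with grey from the lowest to the highest of 17 to 20 other sequences. Right, correlation over 118 cells of the shares of the 12 domains after the share of the other chromosomes was removed, from 0.0575 (domains 4 and 12) to 0.648 (domains 8 and 9). Chromosome 14 runs above the pooled line, and the higher values on the right lie near the diagonal.

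Bins contacted more often also had stronger signal when in contact, although frequency and signal come from the same ratios. Signal means the median ratio of a bin over the cells that contacted it, computed where there were 5 or more such cells. On chromosome 14 its median was 1.45 below 20% (139 bins), 2.01 at 20 to under 80% (368 bins) and 2.43 at 80% or more (61 bins). The other chromosomes had 1.45, 1.99 and 2.50. Among the domains the median ratio in contact was highest in domain 11, at 2.35, followed by domain 9 at 2.29, and lowest in domain 7, at 1.87.

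The profile of single cells on chromosome 14 resembled that of the other cells to different degrees. The correlation of a cell's contacts over the 880 bins with the number of other cells in contact had a median of 0.717. It ranged from 0.233 in cell 105 to 0.875 in cell 3.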

How the data were processed

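Single-cell DamID profiles of Dam-LaminB1 in haploid KBM7 cells were analysed as deposited. The authors deposited a ratio of observed to expected reads per bin of 100 kb, a unit read from the table's name and its values. The sources used here do not state how the expected part was made. Per the submitters' processing notes, cutadapt, Bowtie2 2.1.0 and hg19 were used, in roles not given. Cells were matched to columns by sample number. A contact was a ratio of at least 1. Whole reads were recovered by taking each value as a whole number times a step of the bin and one of the cell. The step of a bin was chosen so that all its values above 0 were whole within 0.02 reads. That 100% of 1697706 values came out whole is therefore no separate check. Recovery gave 28372 to 385661 reads per cell. These reads carry no molecular identifiers, and intervals cover the counting of cells only. The precision of a frequency is limited by 118 cells, and that of a contact by the reads behind a ratio of 1.

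Frequencies, runs, domains and correlations were computed with Python 3.11.15, numpy 2.4.6, pandas 2.3.3 and scipy 1.17.1, and the steps were tested on simulated data. All results are descriptions without p-values, because the labels give 1 group and no cultures. Stretches were named by rule: the 6 longest at 80% or more, the 6 longest at 5% or less and the 5 longest at 40 to under 60%. The members and lists were chosen with earlier results of these data known. Other contact values, thinned reads, sets of cells, bins and limits were tried as alternatives. Sequences were not printed, because no genome of the build hg19 was used here.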

Additional observations from a re-analysis of the deposited data

How the results depend on the processing

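The values are descriptions, and a value counted as moved if it changed by over 1 SD between cells (shares and runs), by over 1.5 times (shares of bins), by over 0.0573, the SD over other sequences (correlation of bins), or by over 0.130, the SD over pairs (correlation of domains). There were 53 values for 8 results and 16 alternatives, and 40 of them did not move. At a contact value of 2, the contact share of chromosome 14 was 16.7%, bins at 80% or more made up 0% of the chromosome, bins never in contact 35.7%, and the mean run was 0.251 Mb. At a contact value of 0.5, bins at 80% or more made up 22.8%, bins never in contact 2.73%, and the mean run was 0.640 Mb. With 50000 reads drawn per cell (9 cells had too few), bins at 80% or more made up 3.52% and bins never in contact 12.2%. No bin (0%) reached 90%, and 37.0% of the bins were at 5% or less. With gaps of 1 bin bridged, the mean run was 0.888 Mb. The mean correlation of domain shares was 0.476 in cells 96 to 124, an alternative chosen after seeing the data. At a level of 40% in place of 20%, also chosen after seeing the data, there were 9 domains in place of 12, which was counted as not moved. The cause of the shifts in the moved values was not tested, apart from the limits, which set the shares by construction. The mean difference between chromosome 14 and the others kept its sign under all 7 alternatives run for it, from -2.19 to -0.492 points. No paired comparison of conditions was possible because the labels give a single group, whereas chromosomes were compared within each cell. Depth limits what a frequency shows, since in 14 cells a ratio of 1 stood for under 3 reads.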
